A study of Mus musculus with 8 samples.

Results

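The RNAs of 147 Zfp genes, which encode zinc finger proteins, were followed through meiotic maturation of mouse oocytes and after injection of 2 forms of BTG4. The members are genes whose symbol is Zfp followed by digits alone, with Zfp36 and Zfp57 left out. They were chosen by their level in GV oocytes, at least 5 TPM in both GV libraries, and had to be listed in all 8 deposited tables. TPM, a transcript's length-corrected share of a library, is the unit of the deposited tables. The 147 members are part of the 295 such Zfp genes and of the 15962 genes listed in all 8 tables, and the other 148 Zfp genes were under the floor. Because GV levels chose the members, their change from GV to MII is given as a description, without a test.

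Polyadenylated RNA was measured by Smart-seq2 in 8 libraries of 15 oocytes each, 2 per group. All oocytes came from superovulated 6-week-old ICR mice and carried their own Btg4 gene. GV oocytes were fully grown oocytes still holding the germinal vesicle, the nucleus of prophase arrest. MII oocytes were uninjected and had matured in culture to the second meiotic metaphase. Btg4wt oocytes were MII oocytes that overexpressed wild-type BTG4 from injected cRNA. Btg4tm oocytes were MII oocytes that overexpressed BTG4 with a threonine and 2 serines, neighbouring phosphosites, changed to alanine. The comparison of Btg4tm with Btg4wt asks whether levels of RNA captured by its poly(A) tail depend on these phosphosites. BTG4 is an adaptor that brings a deadenylase to maternal mRNAs, and the loss of their poly(A) tails starts their decay.

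C2H2 zinc fingers are short loops held by a zinc ion between a pair of cysteines and a pair of histidines, and rows of such fingers read DNA. Many of these proteins also carry a KRAB domain, which recruits TRIM28 and through it the H3K9 methyltransferase SETDB1, so that the bound locus is packed into silent chromatin. In the germ line and early embryo such proteins keep transposable elements silent and protect imprints, and the egg can pass their RNA and protein to the embryo. A few Zfp genes encode proteins that bind RNA, microtubules or ribosomes instead.

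The stretches below show what a finger looks like in the members on which the results turn. Each is 84 bases of coding sequence from GENCODE M21 transcripts (build GRCm38), read 5′ to 3′ on the coding strand from the first cysteine of a finger. The codons of its cysteines and histidines are in capitals. Zfp655 had the highest level in GV oocytes (chr5:145244066-145244149, plus strand). Zfp296 showed the largest rise in Btg4tm over Btg4wt on the log2(TPM + 1) scale, in which a pseudocount of 1 is added to each value (chr7:19579861-19579944, plus strand) and Zfp217 the largest fall (chr2:170119956-170120039, minus strand). Zfp108, called lower in Btg4tm (chr7:24260832-24260915, plus strand), and its neighbour Zfp109, not called (chr7:24229047-24229130, minus strand), show how alike single fingers of neighbouring members can be. The pair was picked for this after its values were seen.
Zfp655: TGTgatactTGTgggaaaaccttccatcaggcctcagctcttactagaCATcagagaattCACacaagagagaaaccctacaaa
Zfp296: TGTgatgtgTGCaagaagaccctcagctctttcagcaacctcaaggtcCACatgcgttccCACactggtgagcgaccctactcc
Zfp217: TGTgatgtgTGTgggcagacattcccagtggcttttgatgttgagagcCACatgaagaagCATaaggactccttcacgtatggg
Zfp108: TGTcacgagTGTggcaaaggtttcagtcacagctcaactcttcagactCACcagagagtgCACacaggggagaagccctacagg
Zfp109: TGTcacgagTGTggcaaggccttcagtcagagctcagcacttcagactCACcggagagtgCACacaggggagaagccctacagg

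The stretches of Zfp108 and Zfp109 were alike at 77 of 84 positions, whereas those of Zfp296 and Zfp217 were alike at 36 of 84. Reads that map to several places were dropped by the mapping quality filter used in counting. In 26 members, at least 30% of the transcript also occurred in other genes as stretches of 50 bases, and in 7 members at least 20% of the exon sequence overlapped another gene. Counting ignored strand. Levels of these members are therefore uncertain, and they are marked where they are named.

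All 147 members matched the annotation by symbol, and 144 had a complete coding transcript. A KRAB A box, found with a pattern on the translated sequence, was present in 83 of these 144 (57.6%), compared with 1.84% of all coding genes listed in the tables. The pattern can miss boxes that differ from it. The median number of fingers was 11, the largest 27 (Zfp423), and 126 members had at least 4. No finger was matched in Zfp330, Zfp750, Zfp839 and Zfp957, so the name alone does not show a row of fingers there, and Zfp640 and Zfp939 are annotated as pseudogenes. Members lay on 19 chromosomes, with 36 on chromosome 7, 21 on chromosome 17 and 17 on chromosome 8, and 87 had another member within 1 Mb. Their transcripts had a median of 3022 bases and 43.5% GC, against 2939 bases and 49.5% GC over all genes in the tables.

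The libraries were those of oocytes by their markers. All 12 oocyte markers were above 1 TPM in every library. Of 14 cumulus and granulosa markers 4 were listed, and their summed level ran from 20.9 to 29.8 scaled TPM. Cyp19a1 lay between 15.8 and 26.8 scaled TPM in every library, and Inha passed 5 TPM in some library. Inha, with a mean of 1.48 scaled TPM in Btg4wt and 7.51 in Btg4tm, was the 1 gene called in Btg4tm over Btg4wt of the 3 tested, and its part in any result was not tested. Of 7 markers of blood, vessel and stroma 2 were listed (15.4 to 30.7 summed), and Ptprc, a defining gene of blood cells, was not among them. Pecam1 lay between 14.1 and 29.5 scaled TPM in every library. Whether Cyp19a1 and Pecam1 RNA came from other cells was not tested. Replicates correlated at 0.982 to 0.987 on the log2 scale, and the members' median difference between replicates was 0.167 to 0.191 log2 units. Btg4 itself was at 2650 and 2794 scaled TPM in GV, 5792 and 6002 in MII, 5178 and 5510 in Btg4wt, and 3725 and 4068 in Btg4tm, so its level was not higher in the injected than in the uninjected MII libraries. Injected and endogenous Btg4 RNA are not separated by these values. Mitochondrially encoded RNA took 0.626% to 0.652% of TPM in GV, 2.60% to 2.71% in MII, 1.75% to 2.05% in Btg4wt and 0.765% to 1.02% in Btg4tm. Since TPM are shares, less RNA of a gene and more of other RNAs cannot be told apart, nor can fewer oocytes and less RNA per oocyte. Reverse transcription started from oligo(dT), so a change in the amount of an RNA and a change in its poly(A) tail cannot be told apart either. The number of reads behind a value is unknown, and precision rests on the 2 libraries per group.

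In GV oocytes the members spanned 4.90 to 312 scaled TPM (mean of both libraries), with a median of 14.8, and 13 members reached 100. The 8 highest members held 32.5% of the members' summed level. Zfp655 led at 331 and 294 scaled TPM. Zfp296, a chromatin factor known from pluripotent cells, followed at 223 and 323. Zfp750, a regulator of epidermal differentiation that lacks a matched finger row, stood at 209 and 254. Zfp706, a small protein with 1 matched finger, stood at 209 and 213. The order of these leading members is not firm, since the replicates of Zfp296 spanned the means of Zfp750 and Zfp655. Next came Zfp108 (142 and 173), Zfp957 (133 and 174) and Zfp958 (144 and 135), whose replicates overlap as well, and below these Zfp951 (124 and 94.0).

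At the floor, the closest members by their lower GV library were Zfp445 (5.04 and 5.59 TPM as deposited), Zfp42 (5.05 and 5.94) and Zfp276 (5.80 and 5.10). Just under it were Zfp433 (4.94 and 6.70), Zfp819 (7.45 and 4.81) and Zfp235 (5.30 and 4.65). Zfp445 protects imprints in the embryo, Zfp42 (REX1) is a marker of pluripotent cells, and Zfp819 represses endogenous retroviruses. The GV values of the members just inside the floor overlap those of the genes just under it.

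From GV to MII the members moved in both directions. Their median log2 fold change was 0.04, and the lower and upper quartiles were -0.66 and 0.69. Both MII libraries lay above both GV libraries in 63 members and below them in 63. Over the 13968 genes that passed the filter on low values, 41.1% lay higher in this way and 41.6% lower. Since GV levels chose the members, nothing is read from these counts.

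The largest falls on the log2(TPM + 1) scale were those of Zfp296, Zfp428, Zfp707 and Zfp524. Zfp296 went from 223 and 323 scaled TPM in GV to 13.9 and 11.8 in MII, a log2 fold change of -4.29. Zfp428 went from 17.6 and 24.6 to 1.03 and 0.721 (-3.54). Zfp707, a KRAB protein, went from 12.3 and 16.7 to 0.387 and 0.585 (-3.37). Zfp524 went from 13.1 and 19.5 to 1.15 and 0.656 (-3.17), and 51.6% of its exon sequence overlaps Fiz1 and Gm44973. By the isoform with the longest coding sequence, all 4 transcripts are short, between 1159 bases (Zfp428) and 1803 bases (Zfp707). The longest annotated transcript of Zfp707 has 2701 bases.

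The largest gains on that scale were smaller in size. Zfp664 went from 57.7 and 67.3 scaled TPM in GV to 165 and 172 in MII (log2 fold change 1.42). Zfp449, a SCAN domain protein, went from 22.4 and 28.8 to 66.1 and 66.1 (1.34). Zfp770 went from 5.56 and 6.75 to 16.0 and 17.7 (1.32). Zfp568, the KRAB repressor of a placental Igf2 promoter, went from 7.13 and 8.62 to 18.4 and 23.3 (1.30). These are gains of relative level, since TPM are shares of a library.

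Calls in the tested comparisons came from a limma fit over all genes, and needed a change of over 1 log2 unit together with an adjusted p-value (Benjamini-Hochberg) under 0.05. Injection of wild-type BTG4 was followed by no member past these limits. In Btg4wt compared with MII, 0 of 147 members were called higher and 0 lower, and over all genes tested 0.0% were called higher and 0.0% lower (limma). An unadjusted p-value under 0.05 was reached by 28 members and by 1655 of all 13968 genes. The members' median log2 fold change was 0.07, against 0.02 for all genes tested, and 132 of 147 members stayed within 0.5 log2 units of 0 (median SE 0.18). The highest value was that of Zfp296, at 13.9 and 11.8 scaled TPM in MII and 23.9 and 27.6 in Btg4wt. Its log2 fold change was 0.95 with a 95% interval of 0.53 to 1.37 and an adjusted p-value of 0.17. The lowest value was that of Zfp42, at 5.20 and 5.26 in MII and 2.80 and 2.89 in Btg4wt (-0.70, adjusted p = 0.36). The control and the injection tables list different numbers of genes (17384 and 16448), so they were filtered as separate sets, and whether the libraries were also made apart is not given in the sources used here.

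In Btg4tm compared with Btg4wt, 16 members rose and 16 fell, and 115 were not called. Over all genes tested, 18.1% were called higher and 7.94% lower, while 10.9% of the members were called in each direction. The risers included Zfp296, Zfp524, Zfp428, Zfp58 and Zfp53, between 3.82-fold and 5.91-fold higher on the log2(TPM + 1) scale. The fallers included Zfp217, Zfp770, Zfp750 and Zfp106, between 2.78-fold and 4.04-fold lower on that scale. The members' median log2 fold change was -0.24, compared with 0.01 for all genes and 0.08 for the 8687 other genes past the same GV floor. Of those other genes, 25.4% were called higher and 8.82% lower. Both Btg4tm libraries lay above both Btg4wt libraries in 42 members and below them in 71. Over the 13968 genes tested these counts were 5258 and 5123, and over the 8687 other genes past the floor 3842 and 3251.

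Zfp296 had the largest change on the log2(TPM + 1) scale. By the ratio of mean scaled TPM, with no pseudocount, it was 6.09-fold higher in Btg4tm, and Zfp524 (9.86-fold), Zfp53 (6.58-fold) and Zfp707 (6.42-fold), whose Btg4wt levels were at or under 1.45 scaled TPM, stood above it. Zfp296 stood at 23.9 and 27.6 scaled TPM in Btg4wt and at 150 and 163 in Btg4tm, a log2 fold change of 2.56 (SE 0.18, adjusted p = 1.6e-05). Both Btg4tm libraries were far above all 4 libraries of uninjected and Btg4wt MII oocytes and below both GV libraries. Its transcript of 1530 bases lies on chromosome 7, encodes 6 matched fingers and no matched KRAB A box, and shares no stretch of 50 bases with another gene.

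Further short transcripts without a matched KRAB A box rose with it. Zfp524 stood at 0.869 and 1.12 scaled TPM in Btg4wt and at 8.24 and 11.4 in Btg4tm (log2 fold change 2.42, SE 0.27, adjusted p = 0.00015), with the exon overlap given above. Zfp428 stood at 1.70 and 2.36 and at 11.1 and 12.9 (2.11, SE 0.23, adjusted p = 0.00015). In both genes the Btg4wt libraries were at or under 2.36 scaled TPM, where the pseudocount of 1 shrinks a fold change.

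Several KRAB genes were among the 8 largest rises. Zfp58 stood at 8.82 and 10.3 scaled TPM in Btg4wt and at 43.9 and 41.0 in Btg4tm (log2 fold change 2.05, SE 0.15, adjusted p = 1.7e-05), and 50.2% of its exon sequence overlaps Gm26965. Zfp53 stood at 1.45 and 0.403 and at 5.90 and 6.28 (1.94, SE 0.30, adjusted p = 0.001). Zfp963 stood at 3.07 and 3.01 and at 13.6 and 13.4 (1.84, SE 0.19, adjusted p = 0.00011), with 40.8% exon overlap with Gm20422. Zfp53 lies in a run of 12 members on chromosome 17, of which it alone rose in this comparison. Zfp707 stood at 0.952 and 0.248 and at 4.09 and 3.62 (1.64, SE 0.27, adjusted p = 0.0014). Zfp688 stood at 0.608 and 1.27 and at 4.08 and 5.32 (1.57, SE 0.23, adjusted p = 0.00079). The libraries of the groups were apart in all of these, as the rule for naming them required.

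The other 8 risers were Zfp3, Zfp653, Zfp825, Zfp472, Zfp28, Zfp61, Zfp772 and Zfp212, with log2 fold changes from 1.01 (Zfp212) to 1.33 (Zfp3). Zfp472 was the most abundant of these, at 29.0 and 25.0 scaled TPM in Btg4wt and 63.8 and 64.8 in Btg4tm. Zfp772, at 2.55 and 0.934 and at 5.22 and 4.07, was the least certain (adjusted p = 0.045). Of the 16 risers, 6 share at least 30% of their transcript with other genes, namely Zfp524, Zfp58, Zfp963, Zfp825, Zfp28 and Zfp772. Without any member marked for shared sequence or exon overlap, 10 rises and 12 falls remained among 118 members. Over all genes tested 18.1% rose and 7.94% fell.

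**Figure D1:**
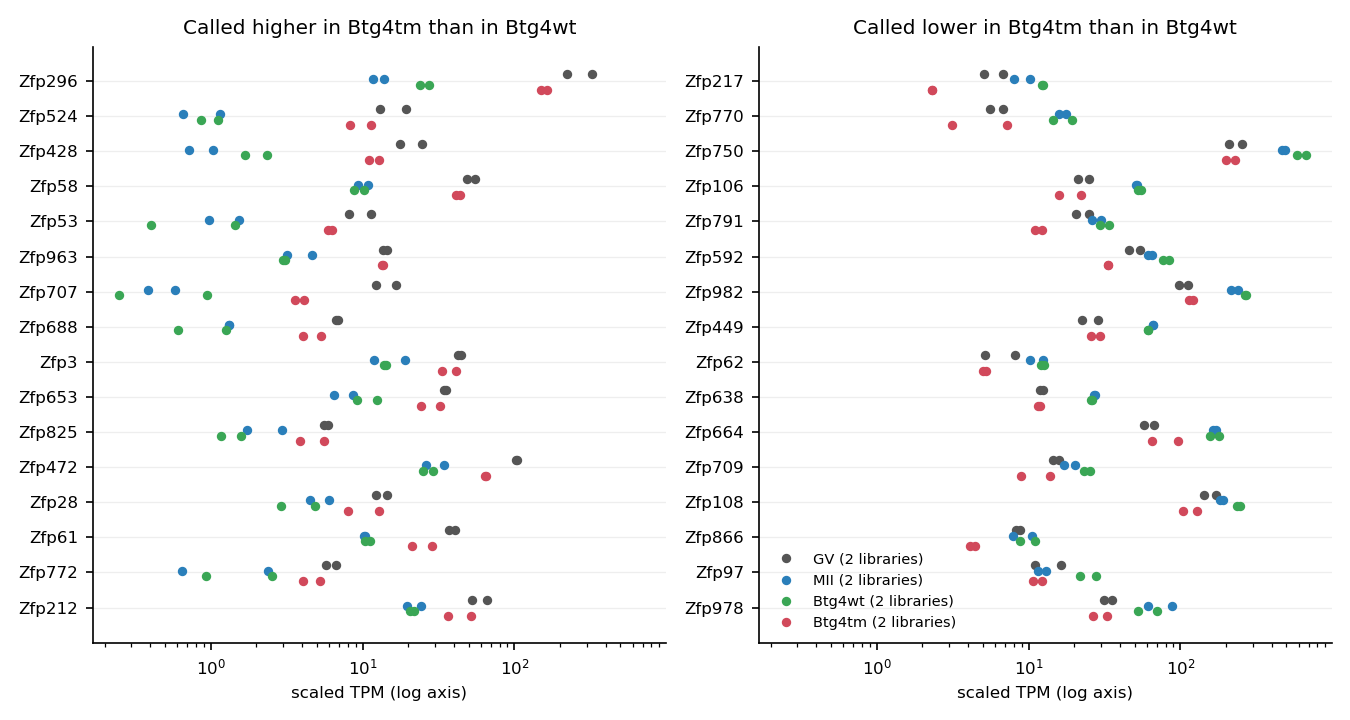
Scaled TPM (log axis) of the 16 members called higher (left) and the 16 called lower (right) in Btg4tm than in Btg4wt, largest change at the top. Each point is 1 library, and colours mark the 4 groups; the Btg4tm points of the risers sit to the right of the MII and Btg4wt points, and those of the fallers to the left of the Btg4wt points.

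Zfp217, which binds the CoREST corepressor, fell most. It stood at 12.4 and 12.5 scaled TPM in Btg4wt and at 2.33 and 2.32 in Btg4tm, a log2 fold change of -2.01 (SE 0.20, adjusted p = 8.8e-05). It was also lower in both Btg4tm libraries than in both GV libraries (5.11 and 6.78). Zfp770 stood at 14.4 and 19.4 and at 3.15 and 7.22 (-1.60, SE 0.31, adjusted p = 0.003), and its Btg4tm replicates lay on either side of the GV values.

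Zfp750 was the most abundant faller. It stood at 590 and 672 scaled TPM in Btg4wt and at 199 and 228 in Btg4tm (log2 fold change -1.56, SE 0.13, adjusted p = 3.4e-05). Zfp106, an RNA-binding protein of whose exon sequence 26.1% overlaps Gm26899, stood at 55.1 and 52.8 and at 15.8 and 22.3 (-1.47, SE 0.17, adjusted p = 0.00019). Zfp791, a KRAB gene, stood at 33.7 and 29.7 and at 12.4 and 11.0 (-1.37, SE 0.16, adjusted p = 0.00018). Zfp592, part of the ZMYND8 complex, stood at 83.7 and 76.5 and at 33.4 and 33.6 (-1.23, SE 0.12, adjusted p = 8e-05). The groups did not overlap in each of these, which the rule for naming them required.

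Zfp982, in a run of 6 members on chromosome 4, stood at 269 and 265 scaled TPM in Btg4wt and at 115 and 121 in Btg4tm (log2 fold change -1.17, SE 0.11, adjusted p = 5.9e-05), and 36.3% of its transcript is shared. Zfp449 stood at 60.8 and 61.4 and at 25.6 and 29.7 (-1.12, SE 0.14, adjusted p = 0.00035). The other 8 fallers were Zfp62, Zfp638, Zfp664, Zfp709, Zfp108, Zfp866, Zfp97 and Zfp978, with log2 fold changes from -1.12 (Zfp62) to -1.02 (Zfp978). Zfp97 and Zfp978 share 94.4% and 93.7% of their transcripts with other genes. Without Btg4tm replicate 1, Zfp108 and Zfp664 were under the fold limit, at -0.92 and -0.79. Zfp664 also missed it without Btg4wt replicate 2, at -0.97.

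The split of calls depends on the scaling. With quantile normalization 11 members were called higher and 27 lower, and with scaling to the mitochondrially encoded genes 55 were called higher and 1 lower (Zfp217). Over the 13968 genes tested the counts were 2088 and 1786 with quantile normalization, and 6089 and 69 with mitochondrial scaling. The last scaling moved the median of all genes by 0.87 log2 units, to 0.88, and the members' median under it was 0.79.

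Risers and fallers had different medians in several features that the rule did not use. Transcripts of the 16 risers had a median of 2176 bases and 3′ untranslated regions of 467 bases, and those of the 15 fallers with a coding transcript 4029 and 1563 bases. These are lengths of the isoform with the longest coding sequence, which can be shorter than the gene's longest annotated transcript. The values were 1015 against 2732 bases in the riser Zfp688 and 6199 against 9033 in the faller Zfp638. Which isoforms the oocytes held was not tested. Median GC content was 52.9% in risers, 45.4% in fallers and 42.9% in members not called. A KRAB A box was found in 10 of 16 risers, 5 of 15 fallers and 68 of the 113 coding members not called. Across the 144 coding members, Spearman's correlation of the log2 fold change with transcript length was -0.47, with coding length -0.38, with 3′ untranslated length -0.33, with GC content 0.11 and with the number of fingers -0.01. Over 11069 coding genes it was -0.49 for transcript length. These correlations are across genes that share the same libraries.

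When the coding members were split into 3 classes of 48 by transcript length, 12 of the 48 members with the shortest transcripts (up to 2732 bases) rose and 3 fell. Of the 48 with the longest transcripts (over 3756 bases), 1 rose and 8 fell. Thus 25.0% of the shortest class rose and 6.25% fell, and 2.08% of the longest rose and 16.7% fell. Over all genes tested 18.1% rose and 7.94% fell, and of the other genes past the same GV floor 25.4% and 8.82%. The median log2 fold change was 0.27, -0.29 and -0.43 from the shortest to the longest class. A further fit removed, within each library, the trend on exon length, the bases of all annotated exons of a gene. This differs from the transcript length used above, at 15810 against 6199 bases in Zfp638. In this fit 16 members were called higher and 11 lower, and the median was -0.01. Over the 13643 genes in that fit, 2479 were called higher and 679 lower, and the median was 0.13. Under that correction Zfp106, Zfp592, Zfp638 and Zfp664 were under the limits, at -0.82, -0.74, -0.28 and -0.55.

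**Figure D2:**
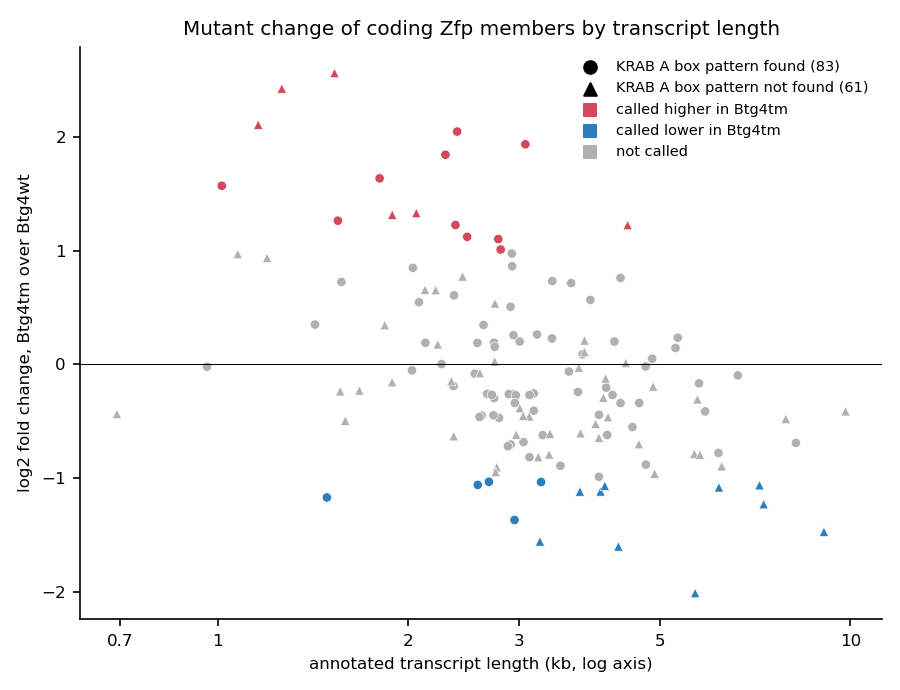
Log2 fold change of Btg4tm over Btg4wt (y axis) against annotated transcript length in kb (log x axis) for the 144 coding members. Circles have a matched KRAB A box (83) and triangles have none matched (61), and colours mark the call. In the shortest class are 12 of the 16 risers, and in the longest 8 of the fallers.

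By domain, the 83 members with a matched KRAB A box held 10 rises and 5 falls (median log2 fold change -0.08). The 61 coding members in which the pattern found no box held 6 rises and 10 falls (-0.44), and some of these may carry a box that it missed. The 78 members with 10 or more fingers held 5 rises and 7 falls (-0.25), and the 62 with 1 to 9 fingers held 11 rises and 7 falls (-0.22). On chromosome 7, where 36 members lie, 7 rose and 2 fell (0.14), and on chromosome 2, with 9 members, 0 rose and 3 fell (-0.62). Other zinc finger families past the same GV floor gave values of both signs. Among 16 Zbtb genes 3 rose and 0 fell (-0.36), among 9 Zkscan and Zscan genes 4 rose and 2 fell (0.83), among 5 Klf genes 0 rose and 1 fell (-0.56), and among 8 Zfp genes with a letter in the symbol 0 rose and 2 fell (-0.83). Over all genes tested 18.1% rose and 7.94% fell, and of the other genes past the same GV floor 25.4% and 8.82%. On chromosome 7 the shares were 19.4% and 5.56%. The differences between these groups were not tested.

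**Figure D3:**
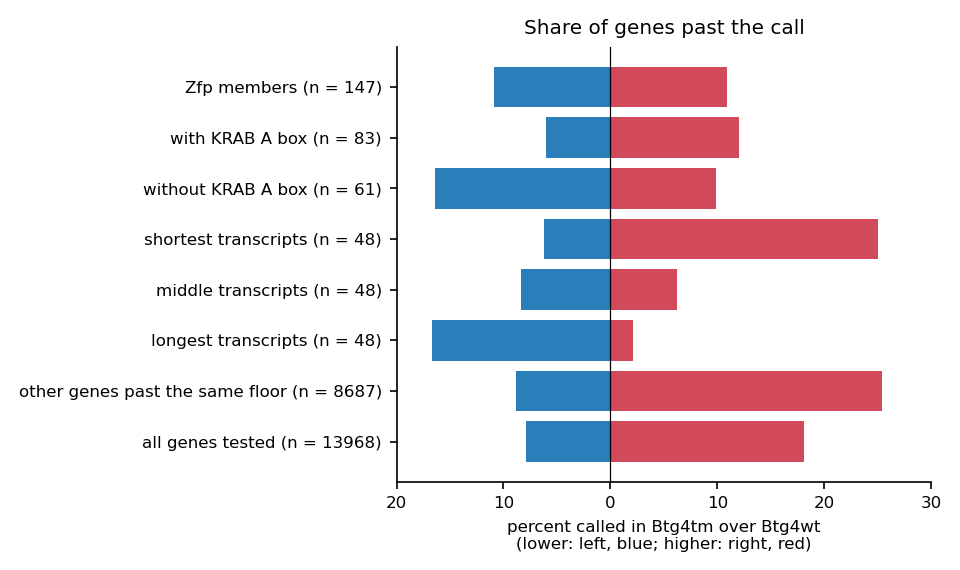
Percent of genes called lower (blue, to the left of 0) and higher (red, to the right) in Btg4tm compared with Btg4wt, for the members, their KRAB and length classes, the other genes past the same GV floor and all genes tested. The members show 10.9% in each direction, while all genes show 18.1% higher and 7.94% lower.

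Of 10 runs of 4 or more neighbouring members, 5 held only rises among their calls, 1 only falls, 2 both and 2 no call in Btg4tm over Btg4wt. No test compared the runs, and over all genes tested 18.1% rose and 7.94% fell. In the run of 12 on chromosome 17 (chr17:21008903-22456689), 1 member rose and 0 fell, and the median was -0.08 log2 units. In the run of 7 on chromosome 7 that holds Zfp108, Zfp109, Zfp61 and Zfp428 (chr7:24193947-25083492), 2 rose, 1 fell and 4 were not called. There Zfp109 stood at 21.2 and 15.4 scaled TPM in Btg4wt and at 21.7 and 19.9 in Btg4tm (0.19), while Zfp108 stood at 237 and 248 and at 105 and 128 (-1.06, adjusted p = 0.0003). In the run of 6 on chromosome 4 (chr4:147361303-147848366), 0 rose and 2 fell, and 5 of the 6 share at least 30% of their transcript.

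The members called in Btg4tm over Btg4wt are set beside their change from GV to MII as a description only, since GV levels chose the members and the other genes past the floor alike. All 16 risers lay lower in both MII libraries than in both GV libraries, and 14 of the 16 fallers lay higher. The median log2 fold change from GV to MII was -1.78 in risers, 0.88 in fallers and 0.04 in members not called. Among the other genes past the GV floor, 99.2% of 2203 risers lay lower in MII than in GV and 93.3% of 766 fallers lay higher.

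**Figure D4:**
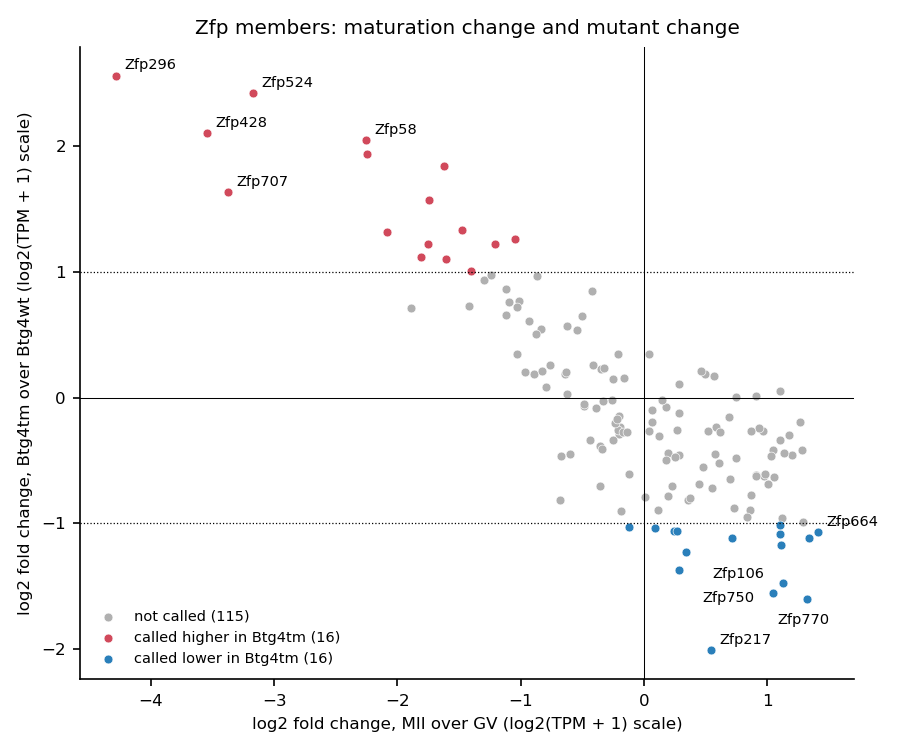
Log2 fold change of each of the 147 members from GV to MII (x axis) and from Btg4wt to Btg4tm (y axis), on the log2(TPM + 1) scale, with dotted lines at the fold limit. Colours mark the call in Btg4tm over Btg4wt; the 16 risers all lie left of 0 and 15 of the 16 fallers right of it.

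In Btg4tm compared with uninjected MII oocytes, 16 members rose and 10 fell. Over all genes tested, 19.3% were called higher and 7.36% lower, and the members' median log2 fold change was -0.16 against -0.01 for all genes. Zfp296 rose most on the log2(TPM + 1) scale, from 13.9 and 11.8 scaled TPM to 150 and 163 (log2 fold change 3.51, SE 0.18, adjusted p = 3.2e-06). Zfp428 rose from 1.03 and 0.721 to 11.1 and 12.9 (2.79, SE 0.23), Zfp524 from 1.15 and 0.656 to 8.24 and 11.4 (2.50, SE 0.27), and Zfp58 from 10.9 and 9.29 to 43.9 and 41.0 (1.97, SE 0.15). This comparison shares its Btg4tm libraries with the preceding comparison, so its calls are not independent of those above.

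Just 3 members, Zfp677, Zfp414 and Zfp111, were called higher against MII and not against Btg4wt, and were picked out after their values were seen. Zfp677, a KRAB gene, stood at 2.84 and 2.48 scaled TPM in MII, 4.47 and 4.62 in Btg4wt, and 9.56 and 10.2 in Btg4tm. Its log2 fold change was 1.58 against MII (adjusted p = 0.00098) and 0.97 against Btg4wt (adjusted p = 0.011). Zfp414, which shares 45.7% of its transcript with Gm20507, stood at 15.4 and 16.6, 17.3 and 27.8, and 39.1 and 47.1 in the same order. Zfp111, a KRAB gene, stood at 3.40 and 3.06, 4.22 and 4.27, and 7.42 and 7.99. Conversely, Zfp212, Zfp28 and Zfp825 were called higher against Btg4wt and not against MII, where their log2 fold changes were 0.97 (adjusted p = 0.0038), 0.85 (adjusted p = 0.034) and 0.79 (adjusted p = 0.032). In all 6 the Btg4tm libraries were the highest of the MII groups, and whether the comparisons differ was not tested.

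The largest falls against MII were those of Zfp770 (-1.61, SE 0.31, adjusted p = 0.0028), Zfp217 (-1.60, SE 0.20, adjusted p = 0.00029), Zfp568 (-1.41, SE 0.18, adjusted p = 0.00032) and Zfp106 (-1.41, SE 0.17, adjusted p = 0.00024). Zfp568 stood at 18.4 and 23.3 scaled TPM in MII, 16.4 and 14.1 in Btg4wt, and 7.19 and 7.13 in Btg4tm. Against Btg4wt it was just inside the fold limit, at -0.99. With quantile normalization 11 members were called higher and 24 lower against MII. With mitochondrial scaling 97 were called higher and 0 lower, where the median of all genes moved by 1.24 log2 units. Over the 13968 genes tested the counts were 2227 and 1857 with quantile normalization, and 8550 and 10 with mitochondrial scaling.

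Members with a well known role were taken from a list of 34 genes, of which 22 are members. In Btg4tm over Btg4wt 0 of these 22 rose and 4 fell (Zfp217, Zfp106, Zfp592 and Zfp638), and their median was -0.51 log2 units, where 18.1% of all genes rose and 7.94% fell. All 4 fallers have transcripts over 3756 bases, the class in which 2.08% of members rose and 16.7% fell. Zfp106, Zfp592 and Zfp638 were under the limits once the trend on exon length was removed. The list was written by hand and leaves out Zfp296, which rose, and Zfp750, which fell, so its counts rest on that choice. In Btg4tm over MII 0 rose and 4 fell (Zfp217, Zfp106, Zfp638 and Zfp568), where 19.3% of all genes rose and 7.36% fell. In Btg4wt over MII none passed the limits in limma.

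Among members that repress transposable elements or protect imprints, Zfp445 stood at 11.0 and 7.75 scaled TPM in Btg4wt and at 5.93 and 4.12 in Btg4tm (log2 fold change -0.78, adjusted p = 0.019). Zfp932, a repressor of endogenous retroviruses that shares 71.9% of its transcript with other genes, stood at 67.0 and 54.1 and at 83.5 and 93.5 (0.55, adjusted p = 0.023). Both were under the fold limit. Zfp568 is given above.

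Among promoter-binding activators and pluripotency factors, Zfp143 stood at 37.5 and 36.9 scaled TPM in Btg4wt and at 24.2 and 32.9 in Btg4tm (log2 fold change -0.39, adjusted p = 0.076). Zfp148, a GC-box binding protein, stood at 32.0 and 32.3 and at 25.5 and 22.4 (-0.41, adjusted p = 0.025). Zfp42 (REX1) stood at 2.80 and 2.89 and at 2.73 and 5.39 (0.34, adjusted p = 0.31), with overlapping libraries. Zfp410, which activates Chd4, stood at 6.21 and 6.27 and at 7.42 and 4.58 (-0.08, adjusted p = 0.8), also overlapping.

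Among partners of chromatin complexes, Zfp687, which like Zfp592 joins ZMYND8, stood at 12.7 and 12.5 scaled TPM in Btg4wt and at 7.57 and 7.16 in Btg4tm (log2 fold change -0.70, adjusted p = 0.013). Zfp644, a partner of G9a and GLP, stood at 8.79 and 8.26 and at 3.78 and 5.29 (-0.80, adjusted p = 0.0099). Outside that group, the BTB domain protein Zfp131 stood at 126 and 157 and at 100.3 and 103 (-0.46, adjusted p = 0.016). Zfp423, with its 27 fingers, stood at 25.1 and 31.4 and at 11.6 and 16.7 (-0.96, adjusted p = 0.0043). Zfp687, Zfp644, Zfp131 and Zfp423 all lay lower in both Btg4tm libraries and under the fold limit. Zfp24, a SCAN domain factor of myelination, stood at 5.97 and 5.10 and at 3.70 and 4.90 (-0.31, adjusted p = 0.23).

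Of 6 members best known for work other than DNA binding, 2 fell and 0 rose in Btg4tm over Btg4wt, beside 7.94% and 18.1% of all genes. These were Zfp106 and Zfp638, both under the limits once the trend on exon length was removed. Zfp638, an RNA-binding protein also known for silencing unintegrated DNA, stood at 26.3 and 25.7 scaled TPM in Btg4wt and at 11.6 and 11.9 in Btg4tm (log2 fold change -1.08, SE 0.13, adjusted p = 0.00021). Zfp207 (BuGZ), which binds spindle microtubules and BUB3, stood at 81.6 and 86.7 and at 71.4 and 70.9 (-0.24, adjusted p = 0.076). Zfp598, the ligase that senses collided ribosomes, stood at 21.1 and 22.6 and at 14.2 and 13.8 (-0.61, adjusted p = 0.032). Zfp451, a SUMO ligase, stood at 14.1 and 14.9 and at 10.4 and 9.17 (-0.52, adjusted p = 0.035), and the spliceosome protein Zfp830 at 121 and 117 and at 75.5 and 93.4 (-0.50, adjusted p = 0.02). Of the other listed members, Zfp706 was nearly the same, at 363 and 365 and at 369 and 365 (0.01, 95% interval -0.18 to 0.20), and Zfp330, a nucleolar protein, stood at 21.3 and 20.5 and at 16.0 and 19.5 (-0.23, adjusted p = 0.22).

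**Figure D5:**
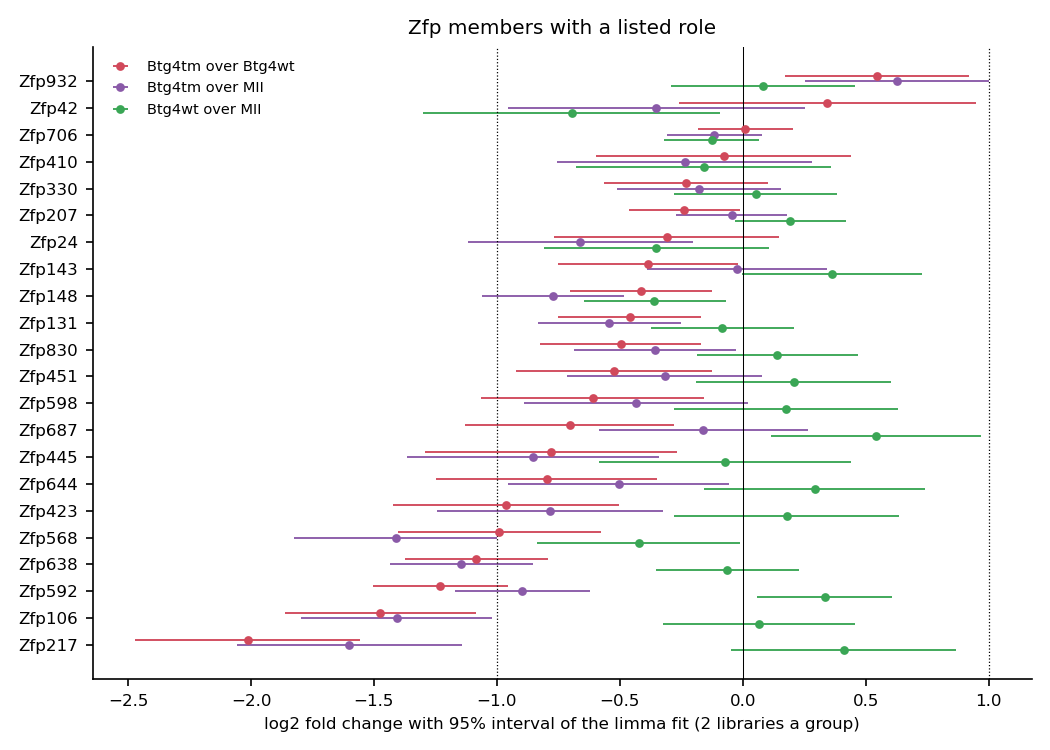
Log2 fold changes with 95% intervals of the limma fit for the 22 members with a listed role, in the 3 tested comparisons (2 libraries per group). In Btg4tm over Btg4wt the intervals of 16 of the 22 lie wholly left of 0 and that of 1, Zfp932, wholly right, and Zfp706 sits at 0.01.

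KRAB zinc finger proteins silence chromatin through TRIM28, SETDB1 and the proteins that these recruit. Of 30 such genes 28 were tested, and in Btg4tm over Btg4wt 1 rose (3.57%) and 6 fell (21.4%), beside 18.1% and 7.94% of all genes. Their median was -0.44 log2 units. Trim28, which KRAB domains bind, stood at 58.0 and 54.1 scaled TPM in Btg4wt and at 70.9 and 56.5 in Btg4tm (0.17, adjusted p = 0.31), with overlapping libraries. Setdb1, the H3K9 methyltransferase, fell from 120 and 108 to 41.4 and 38.3 (-1.49, SE 0.15, adjusted p = 9.4e-05). Ehmt1 (GLP), a further H3K9 methyltransferase, fell from 59.1 and 62.1 to 20.7 and 23.8 (-1.41, SE 0.13, adjusted p = 5.2e-05). Chd4, the NuRD remodeller, fell from 32.8 and 31.6 to 11.8 and 12.4 (-1.34, SE 0.12, adjusted p = 6.3e-05). Smarcad1, Atrx and Dnmt1, a remodeller, a heterochromatin protein and the maintenance DNA methyltransferase, fell by 1.18, 1.13 and 1.01 on the log2 scale. Sumo3, a small ubiquitin-like modifier, rose from 91.5 and 47.6 to 293 and 234 (1.97, SE 0.29, adjusted p = 0.00078). In GV oocytes Setdb1 stood at 44.6 and 60.3 scaled TPM, Ehmt1 at 23.95 and 27.4, and Chd4 at 13.6 and 14.7. Trim28 stood there at 50.5 and 54.7, and Sumo3 at 322 and 248. From GV to MII, 21 of the 28 lay higher in both libraries and 5 lower, beside 41.1% and 41.6% of all genes. How scaling and length affect the calls of this list is not given here.

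In Btg4tm over MII 1 of these genes rose (Sumo3) and 6 fell, namely Chd4, Ehmt1, Trim33, Setdb1, Morc3 and Smarcad1, beside 19.3% and 7.36% of all genes. In Btg4wt over MII none passed the limits. The summed level of the listed genes was 3216 and 3235 scaled TPM in Btg4wt and 2520 and 2552 in Btg4tm, and it was 2067 and 2143 in GV and 3196 and 3166 in MII. That of the 147 members was 6035 and 5894 in Btg4wt and 4582 and 4874 in Btg4tm, and it was 4829 and 4938 in GV and 5763 and 5742 in MII.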

How the data were processed

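Polyadenylated RNA of 15 oocytes per library was reverse transcribed from oligo(dT), amplified and sequenced (Smart-seq2). The authors trimmed reads with Trim Galore 0.6.10, aligned them with HISAT2 2.2.0 to GRCm38, counted exonic primary alignments without strand using featureCounts 2.0.6 and a mapping quality minimum, and deposited TPM per gene symbol. TPM hold no read depth, and the gene lengths used for them are not given in the sources used here. The study tested counts with DESeq2, which TPM do not allow. The deposited TPM were scaled by the median of ratios (factors 0.948 to 1.11), and log2(TPM + 1) was fitted with limma 3.58.1 in R 4.3.3 (eBayes with trend, all 8 libraries, 13968 genes that reached 1 TPM in 2 or more libraries). Calls are not given for MII versus GV, since GV levels chose the members. Fold changes are on the log2(TPM + 1) scale, which understates changes of low genes. No source states that replicates came from separate animals, so p-values measure only the spread between these libraries.

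Transcript, coding and 3′ untranslated lengths, fingers and KRAB boxes came from the GENCODE isoform with the longest coding sequence (M21, GRCm38). The study used a later release. The length trend that was removed used the bases of all annotated exons of a gene instead. Named members were the 8 highest in GV and the 8 largest rises and falls in Btg4tm versus Btg4wt. Also named were 4 each against MII and from GV to MII, 3 on each side of the floor and those with a listed role. Rises and falls named by rank needed libraries that did not overlap between the groups and, except from GV to MII, a call. Of the silencing genes, Trim28, Setdb1 and those called were named. Others were named as complete counts. Members and lists were chosen with earlier results of these data known.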

Additional observations from a re-analysis of the deposited data

How the results depend on the processing

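Medians below are log2 fold changes of the members. For Btg4tm versus Btg4wt, quantile normalization gave 27 lower calls and a median of -0.46, against 1786 lower calls and -0.18 over all 13968 genes. Mitochondrial scaling gave 55 higher and 1 lower calls and a median of 0.79, so the median reversed. Over all genes it gave 6089 higher and 69 lower calls and a median of 0.88. Removing the length trend gave a median of -0.01, against 0.13 over all genes. No minimum fold change gave 31 higher and 49 lower calls, against 3666 and 3251 over all genes. The 118 members without shared sequence or exon overlap, an alternative added after the data were seen, gave 10 higher calls. Leaving out 1 library gave medians of -0.28 to -0.15, 14 to 17 higher calls and 13 to 18 lower calls, the remaining library of that group being taken to vary like the other groups. For Btg4wt versus MII, quantile normalization gave a median of 0.043. Mitochondrial scaling gave 2 higher calls and a median of 0.47, against 69 higher calls and 0.39 over all genes. Leaving out 1 library gave medians of 0.006 to 0.097. For Btg4tm versus MII, quantile normalization gave 24 lower calls and a median of -0.38, against 1857 lower calls and -0.22 over all genes. Mitochondrial scaling gave 97 higher and 0 lower calls and a median of 1.31. Over all genes it gave 8550 higher and 10 lower calls and a median of 1.225. Removing the length trend gave a median of -0.07, against 0.12 over all genes. No minimum fold change gave 31 higher and 41 lower calls, against 3886 and 3346 over all genes. A GV floor of 10 TPM gave a median of -0.12, and leaving out 1 library gave medians of -0.23 to -0.10.

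For MII versus GV, a description, the median was -0.11 with TPM as deposited, 0.32 with quantile normalization, -1.998 with mitochondrial scaling, -0.18 without the length trend, -0.12 with a GV floor of 10 TPM and 0.069 in the members without shared sequence. Leaving out 1 library gave medians of -0.10 (without MII replicate 1) to 0.041, with -0.03 without GV replicate 1, so its sign is not fixed.

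With the replicate block, Btg4tm versus Btg4wt gave 15 higher and 16 lower calls. The numbers do not pair the libraries, since replicate differences correlated at -0.05 to 0.06 between groups. For single members, mitochondrial scaling reversed Btg4tm versus MII for Zfp750 (0.42), Zfp106 (0.12), Zfp791 (0.30), Zfp449 (0.31), Zfp568 (0.048), Zfp664 (0.50) and Zfp638 (0.35), and Btg4tm versus Btg4wt for Zfp108 (0.02) and Zfp664 (0.008). Of the 16 risers 10 were called under all 20 alternatives, and of the 16 fallers 6 were called under the 19 other than mitochondrial scaling. The cause of these changes was not tested. TPM carry no counts, so depth sets a limit that cannot be stated here.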
